A study of Saccharomyces cerevisiae with 12 samples.

Results

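The ATG genes of budding yeast encode the machinery of autophagy. They were taken from the deposited table by a list of systematic names, of genes whose standard name is ATG with a number, together with VPS30, which is also known as ATG6. ATG38 and ATG42 were not on that list and are counted among other autophagy genes. All 33 listed genes were found among the 6685 genes of the table. They were set out in 3 classes: 18 genes of the core machinery that builds the autophagosome, 6 receptors that tie a chosen cargo to it, and 9 accessory and vacuolar genes.

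In autophagy, a cup of membrane grows around a piece of the cell, closes into an autophagosome and delivers its content to the vacuole, where it is broken down and its building blocks are released. In yeast the process is best known as an answer to a lack of nitrogen or amino acids, when TORC1, a kinase that holds it back in rich medium, loses activity. Its ubiquitin-like protein Atg8 is joined to phosphatidylethanolamine, the lipid that Cho2 methylates.

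The series compared a strain lacking CHO2 (cho2, in which a KanMX cassette replaced the gene) with its wild type (WT), both of the CEN.PK background and of mating type a. Cho2 carries out the first methylation of phosphatidylethanolamine on its way to phosphatidylcholine, with S-adenosylmethionine as the methyl donor. There were 6 groups of 2 libraries each: cho2 and WT cells growing in YPL, a rich medium with 1% yeast extract, peptone and lactate at 2% each, and the same strains 1 h and 3 h after a wash and transfer at an A600 of 1.0 to SL. SL was a minimal medium with 0.5% ammonium sulfate, 2% lactate and 0.17% of a yeast nitrogen base that lacks amino acids, so lactate was the carbon source throughout. RNA was sequenced from poly-A libraries, and the values are normalised read counts, that is, counts per gene divided by 1 factor per library. Differences are log2 ratios ± SE on the scale of value + 1, and a gene is said to have passed where limma's p, adjusted by Benjamini-Hochberg over the 6546 genes tested, was under 0.05. All 33 ATG genes passed the filter on low values, and the fewest reads behind any of their values were 28, for ATG10 in the second WT library at 3 h.

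Libraries held 3166868 to 12489334 reads, the shallowest being the second WT library at 3 h. CHO2 itself stood at 3.77 to 9.19 in the 6 cho2 libraries, against 1570.5 to 4065 in the 6 WT libraries. The 4 a-cell genes summed to 2418 to 3904 in cho2 and 2137 to 3515 in WT libraries, and the 3 alpha-cell genes to 155 to 403 in cho2 and 133 to 235 in WT. The alpha-factor gene MF(ALPHA)1 was at 7.60 to 34.9 in cho2 and 3.03 to 11.4 in WT. The other alpha-factor gene, MF(ALPHA)2, was at 20.4 to 37.2 in cho2 and 34.4 to 72.3 in WT. STE3, the third alpha-cell gene, was at 110 to 339 in cho2 and 93.0 to 163 in WT. Library 2 of cho2 at 3 h stood apart: over all genes its median deviation from the 12-library mean was -0.33 log2, against -0.07 to 0.17 in the others. All 33 ATG genes were lower in it than in its partner, with a median difference of -0.40 log2, against -0.38 for all genes. Values at 3 h in the accounts of single genes include it, and the accounts of the ATG genes as a group at 3 h also give medians and leading values without it.

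**Figure D1:**
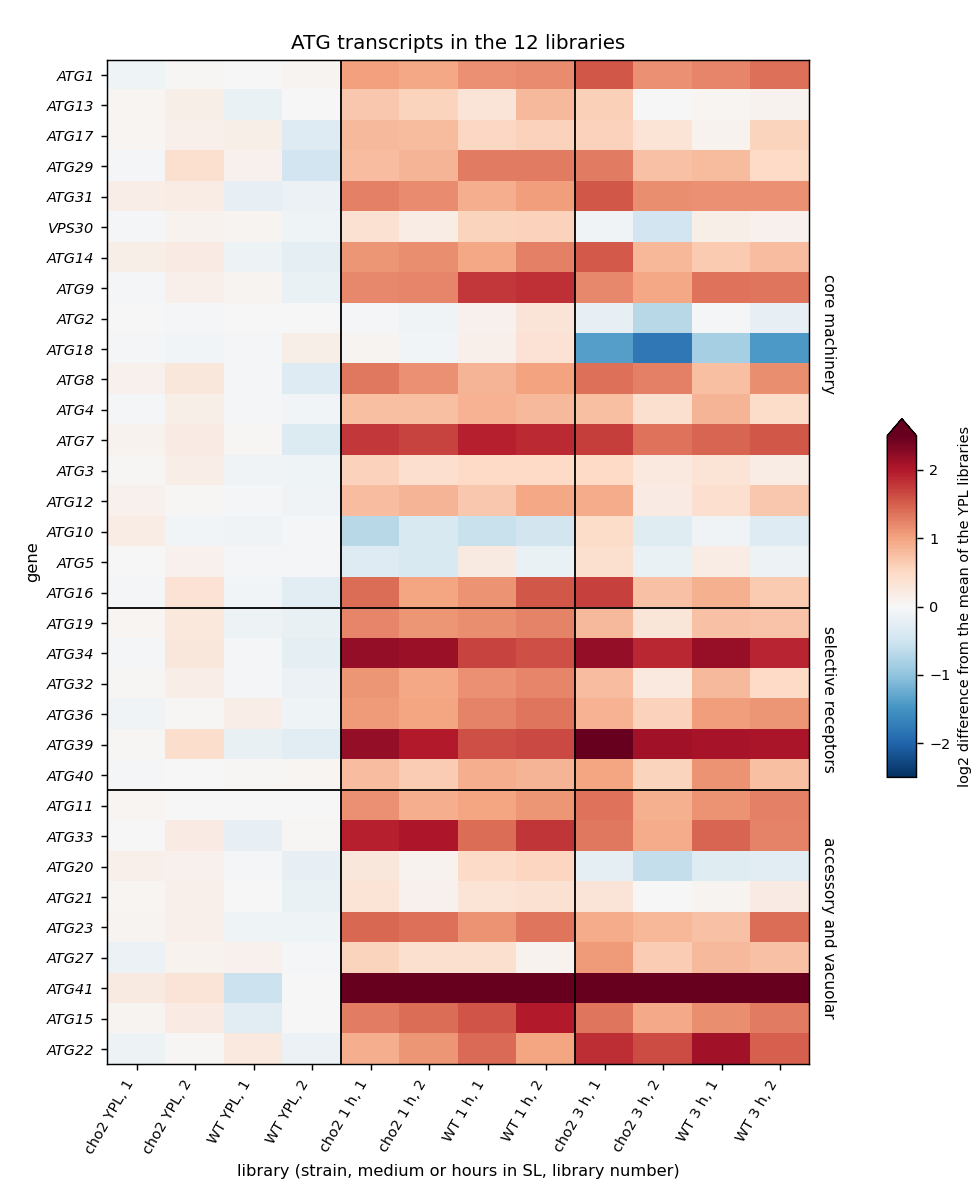
Each row is an ATG gene, each column a library, and the colour is the log2 difference of its normalised read count from the mean of the 4 YPL libraries; black lines part the media and times, and the classes of gene. ATG41 in every SL library, and ATG39 in the first cho2 library at 3 h, lie past the end of the scale. Most rows are red in the SL columns, ATG18 is blue at 3 h, and ATG2, ATG10 and ATG5 stay pale in most columns.

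The switch to SL was followed within 1 h by a rise of most ATG transcripts in both strains. In cho2 cells 26 of the 33 rose, where 25.2% of all genes tested rose and 24.6% fell. The median ATG gene was 0.96 log2 higher in SL than in YPL in cho2, against 0.05 for all genes. All 6 receptors rose, with a median of 1.03, as did 13 of the 18 core genes, with a median of 0.71. Of the 9 accessory and vacuolar genes 7 rose, and the median of that class was 1.05. In WT cells 28 of the 33 rose, where 33.7% of all genes rose and 23.8% fell, with a median of 1.12 against 0.18 for all genes. These were again all 6 receptors, with a median of 1.32, together with 14 of the 18 core genes, with a median of 0.89. They also included 8 of the 9 others, a class with a median of 1.15. The strains shared 25 of these genes, which is 96.2% of the cho2 genes and 89.3% of the WT genes. The values are shares of each library's RNA, so a change in the total RNA of a cell cannot be told apart from them. Under TMM scaling, which resets the library factors from the bulk of genes, the median of all genes at 1 h moved to -0.01 in cho2 and 0.03 in WT, and among all genes that passed in WT the share that rose was 48.5%, against 58.7% under the deposited scaling. Relative to the median of all genes, the ATG median stood 0.91 higher in cho2 and 0.94 higher in WT. Both scalings use 1 factor per library, which moves all genes alike, so this gap could not differ between them. No test of receptors against core genes was made, and the classes are described by their counts and medians.

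The kinase complex around Atg1, which starts the process, rose as a whole in both strains at 1 h: all 5 of its genes passed. ATG1 (YGL180W), the kinase, had 481 and 533 in YPL, 1056 and 1023 at 1 h and 1539 and 1146 at 3 h in cho2 cells. In WT cells it had 527 and 547, then 1159 and 1180.5, then 1212 and 1348. All SL values lay above all YPL values, and the mean of ATG1 was highest at 3 h in both strains. Relative to YPL it rose by 1.04 ± 0.17 at 1 h and 1.39 ± 0.17 at 3 h in cho2 cells, and by 1.12 ± 0.17 and 1.25 ± 0.17 in WT cells.

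Of the scaffold that recruits Atg1, made of Atg17, Atg29 and Atg31, the gene ATG31 (YDR022C) rose by 1.03 ± 0.18 in cho2 and 1.16 ± 0.18 in WT at 1 h, and was still up at 3 h by 1.17 ± 0.18 and 1.33 ± 0.18. ATG17 (YLR423C) rose by 0.72 ± 0.20 in cho2 and 0.63 ± 0.20 in WT at 1 h and passed in neither strain at 3 h. ATG13 (YPR185W), whose product is phosphorylated by TORC1, did the same, with 0.52 ± 0.20 and 0.66 ± 0.20 at 1 h. ATG29 (YPL166W) overlaps SET6 on the other strand in the reference annotation; whether the authors' counting used the strand is not given in the sources used here, so reads of these overlapping genes may not be told apart. It had 193 and 264 in YPL, 339.7 and 359 at 1 h and 488 and 330.1 at 3 h in cho2 cells, against 215 and 142, 494 and 491, and 343 and 282 in WT cells. Its highest WT values thus fell at 1 h and its highest cho2 value at 3 h. The interaction, the difference between the strains in the change at 1 h, was -0.86 ± 0.32 for ATG29 and did not pass (adjusted p = 0.175).

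The lipid kinase complex that marks the growing membrane with phosphatidylinositol 3-phosphate is represented by VPS30 (YPL120W), a subunit that also serves sorting to the vacuole, and ATG14 (YBR128C), the subunit that directs the kinase to autophagy. ATG14 stood at 209 and 219.6 in YPL, 409 and 426 at 1 h and 551 and 341 at 3 h in cho2 cells, and at 175 and 163, 373 and 457, and 299.9 and 325 in WT cells. Every SL value exceeded every YPL value. Its rise at 1 h was 0.96 ± 0.21 in cho2 and 1.29 ± 0.21 in WT, and it still passed at 3 h in both strains, at 1.01 ± 0.21 and 0.88 ± 0.21. VPS30 rose at 1 h by 0.59 ± 0.18 in WT, while its difference of 0.26 ± 0.18 in cho2 did not pass, and it passed in neither strain at 3 h.

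ATG9, ATG2 and ATG18 belong to the membrane supply: Atg9 sits in the vesicles that seed the autophagosome, and Atg2 with Atg18 forms the bridge through which lipids reach it. ATG9 rose, ATG18 fell at 3 h, and ATG2 passed in 1 contrast alone. ATG9 (YDL149W) rose in both strains, with 505 and 565 in YPL, 1188 and 1205 at 1 h and 1190.4 and 1005 at 3 h in cho2 cells, and 538 and 456, 1749 and 1831, and 1313 and 1294 in WT cells. All SL values lay above all YPL values, and the WT values at 1 h were the highest of all. The rise at 1 h was 1.16 ± 0.17 in cho2 and 1.85 ± 0.17 in WT.

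ATG18 (YFR021W), which binds phosphatidylinositol 3-phosphate, was the 1 ATG gene that fell in both strains at 3 h. It had 399.8 and 391 in YPL, 431 and 395 at 1 h and 158 and 119 at 3 h in cho2 cells, and 404 and 455, 451 and 533, and 232 and 151 in WT cells. The 3 h values were the lowest in both strains and did not overlap those of the earlier times. The change at 1 h did not pass, at 0.06 ± 0.21 in cho2 and 0.19 ± 0.21 in WT. At 3 h ATG18 fell relative to YPL by 1.52 ± 0.21 in cho2 (adjusted p = 1.45e-06) and by 1.19 ± 0.21 in WT (adjusted p = 4.33e-05). ATG2 (YNL242W) passed in no WT contrast, with 0.20 ± 0.18 at 1 h and -0.14 ± 0.18 at 3 h. In cho2 cells it passed as lower at 3 h, at -0.44 ± 0.18 (adjusted p = 0.0421), a call lost without the low library (-0.19, adjusted p = 0.251).

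The ubiquitin-like conjugation system, with 8 genes, was split. Of these, ATG8, ATG4, ATG7, ATG3, ATG12 and ATG16 rose at 1 h in both strains, whereas ATG10 and ATG5 passed in no contrast with all 12 libraries under the deposited scaling. ATG7 (YHR171W), the E1-like enzyme that activates both Atg8 and Atg12, changed most. It had 554 and 597 in YPL, 1776 and 1677 at 1 h and 1732 and 1329 at 3 h in cho2 cells, and 532 and 411, 1987 and 1904, and 1420.4 and 1516 in WT cells. SL and YPL values did not overlap, and the 1 h change was 1.58 ± 0.18 in cho2 and 2.05 ± 0.18 in WT.

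ATG8 (YBL078C), the ubiquitin-like protein itself, had 574 and 649 in YPL, 1337 and 1178 at 1 h and 1393 and 1281 at 3 h in cho2 cells. In WT cells it had 520.4 and 426, 966 and 1071, and 907 and 1205. All SL values lay above all YPL values. The cho2 values lay above the WT values in YPL and at both times in SL, and the strain difference passed at none of these. ATG8 rose by 1.04 ± 0.18 and 1.13 ± 0.18 in cho2, and by 1.11 ± 0.18 and 1.15 ± 0.18 in WT, at 1 h and 3 h. ATG4 (YNL223W), the protease that trims Atg8 and frees it from the lipid, rose by 0.69 ± 0.18 in cho2 and 0.90 ± 0.18 in WT at 1 h. ATG3 (YNR007C), the E2-like enzyme for Atg8, had the smallest of these 6 rises in both strains, at 0.41 ± 0.17 in cho2 and 0.59 ± 0.17 in WT, and passed in neither strain at 3 h.

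The Atg12 branch behaved unevenly. ATG12 (YBR217W) rose by 0.75 ± 0.21 in cho2 and 0.89 ± 0.21 in WT at 1 h, and ATG16 (YMR159C), which holds the Atg12-Atg5 conjugate at the membrane, by 1.02 ± 0.26 and 1.50 ± 0.26. ATG5 (YPL149W), the target of Atg12, had 751 and 820.2 in YPL, 606 and 583 at 1 h and 1001 and 675 at 3 h in cho2 cells, and 729.6 and 739.8, 893 and 674, and 861 and 692 in WT cells. Its values overlapped between YPL and SL in WT cells, whereas in cho2 cells both 1 h values lay below both YPL values. The change at 1 h was -0.40 ± 0.20 in cho2 (adjusted p = 0.0933) and 0.08 ± 0.20 in WT. ATG10 (YLL042C), the E2-like enzyme for Atg12, was lower at 1 h than in YPL in all 4 libraries, at 62.0 and 76.6 in cho2 and 68.2 and 72.7 in WT, against 115 and 96.3 in cho2 and 95.0 and 97.0 in WT in YPL. The differences, -0.60 ± 0.27 in cho2 and -0.44 ± 0.27 in WT, did not pass with all libraries under the deposited scaling (adjusted p = 0.0627 and 0.159). Under TMM scaling ATG10 passed as lower at 1 h in both strains (0.0133 in cho2 and 0.0211 in WT) and ATG5 in cho2 (0.0199). Both also passed as lower in cho2 at 1 h without the first cho2 library at 3 h (0.0178 for ATG10 and 0.0370 for ATG5) or without the second (0.0174 and 0.0368). Without the second, and under TMM, both passed as higher in cho2 at 3 h than at 1 h.

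Among the receptors, ATG39 and ATG34 changed most. ATG39 (YLR312C), the receptor for the nuclear envelope and the endoplasmic reticulum around it, had 998 and 1320.3 in YPL, 4498 and 3845 at 1 h and 5940.2 and 4163 at 3 h in cho2 cells. In WT cells it had 851 and 801, 2977 and 3042, and 4077 and 4000.3. All SL values were far above the YPL values, and the means were highest at 3 h in both strains. The rise was 1.86 ± 0.18 at 1 h in each strain, and 2.11 ± 0.18 in cho2 and 2.29 ± 0.18 in WT at 3 h.

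ATG34 (YOL083W), which carries the vacuolar alpha-mannosidase Ams1 in starved cells, had 804 and 989 in YPL, 3726 and 3631 at 1 h and 3759.9 and 3020.3 at 3 h in cho2 cells, and 797 and 697, 2635 and 2491, and 3695 and 3037 in WT cells. At 1 h both cho2 values exceeded both WT values, and at 3 h the strains overlapped. Its rise at 1 h was 2.04 ± 0.17 in cho2 and 1.78 ± 0.17 in WT. ATG19 (YOL082W), its neighbour in the genome and the receptor of the Cvt pathway, which carries aminopeptidase I to the vacuole in growing cells too, had 1982 and 2286 in YPL, 4449 and 4102 at 1 h and 3361 and 2369 at 3 h in cho2 cells, and 1756 and 1691, 4312 and 4499, and 3174 and 3137 in WT cells. The 1 h values were the highest in both strains. ATG19 rose by 1.00 ± 0.17 in cho2 and 1.35 ± 0.17 in WT at 1 h.

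The receptors for mitochondria, peroxisomes and the outer endoplasmic reticulum also rose in both strains at 1 h. ATG32 (YIL146C), the mitophagy receptor, rose by 0.94 ± 0.19 in cho2 and 1.28 ± 0.19 in WT at 1 h, and ATG36 (YJL185C), the receptor for peroxisomes, by 1.05 ± 0.17 and 1.25 ± 0.17. ATG40 (YOR152C), the receptor for the cortical and cytoplasmic endoplasmic reticulum, rose by 0.74 ± 0.18 and 0.85 ± 0.18 and stayed at that level, with 0.81 ± 0.18 and 0.90 ± 0.18 at 3 h. The receptors thus differed among themselves, from 0.74 to 2.04 in cho2 and from 0.85 to 1.86 in WT at 1 h, with ATG40 lowest in both.

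The steepest change of any ATG gene was that of ATG41 (YPL250C), also known as ICY2, whose product binds Atg9 and is needed for normal autophagosome formation. It stood at 307 and 330.3 in YPL, 3232 and 3150.4 at 1 h and 2194 and 1765 at 3 h in cho2 cells, and at 179.9 and 259, 5529 and 5886, and 2030.5 and 2168 in WT cells. All SL values exceeded the YPL values, and at 1 h the WT values were well above those of cho2. The rise at 1 h was 3.32 ± 0.18 in cho2, or 9.99-fold, and 4.72 ± 0.18 in WT, or 26.3-fold. At 3 h it was still up, by 2.62 ± 0.18 in cho2 and 3.28 ± 0.18 in WT.

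The other partners of Atg9 rose more modestly. ATG23 (YLR431C), which helps Atg9 leave its compartment, rose by 1.31 ± 0.19 in cho2 and 1.33 ± 0.19 in WT at 1 h. ATG27 (YJL178C), another protein of Atg9 transport, rose at 1 h in cho2, by 0.51 ± 0.18, with 0.22 ± 0.18 in WT not passing, and at 3 h in both strains, by 0.88 ± 0.18 in cho2 and 0.74 ± 0.18 in WT.

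Of the accessory genes of selective autophagy, ATG33 and ATG11 rose in both strains and at both times. ATG33 (YLR356W), a mitochondrial outer membrane protein of mitophagy, had 867 and 1010.3 in YPL, 3364 and 3553 at 1 h and 2189 and 1661 at 3 h in cho2 cells, and 759 and 889, 2308 and 3027, and 2417 and 2074 in WT cells. The 1 h values stood out in cho2 cells, while the WT values at 1 h and 3 h overlapped. ATG33 rose by 1.88 ± 0.18 in cho2 and 1.69 ± 0.18 in WT at 1 h. ATG11 (YPR049C), the adaptor that joins receptors to the core machinery, rose by 1.01 ± 0.18 in cho2 and 1.05 ± 0.18 in WT. ATG20 (YDL113C), a sorting nexin, and ATG21 (YPL100W), a phosphoinositide-binding relative of Atg18, rose in WT at 1 h, by 0.63 ± 0.17 and 0.44 ± 0.17, and passed in neither direction in cho2, at 0.07 ± 0.17 and 0.13 ± 0.17. The strain difference in these changes did not pass either, with adjusted p = 0.276 for ATG20 and 0.651 for ATG21.

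The vacuolar end of the pathway rose too. ATG15 (YCR068W), the lipase that opens the membranes delivered to the vacuole, had 676 and 740.0 in YPL, 1575 and 1690.5 at 1 h and 1629 and 1252 at 3 h in cho2 cells, and 536 and 645, 1913 and 2552, and 1450.2 and 1596 in WT cells. All SL values lay above all YPL values, and at 1 h both WT values were above both cho2 values. ATG15 rose by 1.21 ± 0.18 in cho2 and 1.91 ± 0.18 in WT at 1 h. ATG22 (YCL038C), which exports amino acids from the vacuole, had 334 and 373, 684 and 784, and 1316 and 1135 in cho2 cells, and 433 and 330.5, 973 and 727, and 1561 and 1031 in WT cells. ATG22 was highest at 3 h and its groups did not overlap within a strain. Its rise was 1.05 ± 0.21 in cho2 and 1.15 ± 0.21 in WT at 1 h, and 1.79 ± 0.21 and 1.74 ± 0.21 at 3 h.

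**Figure D2:**
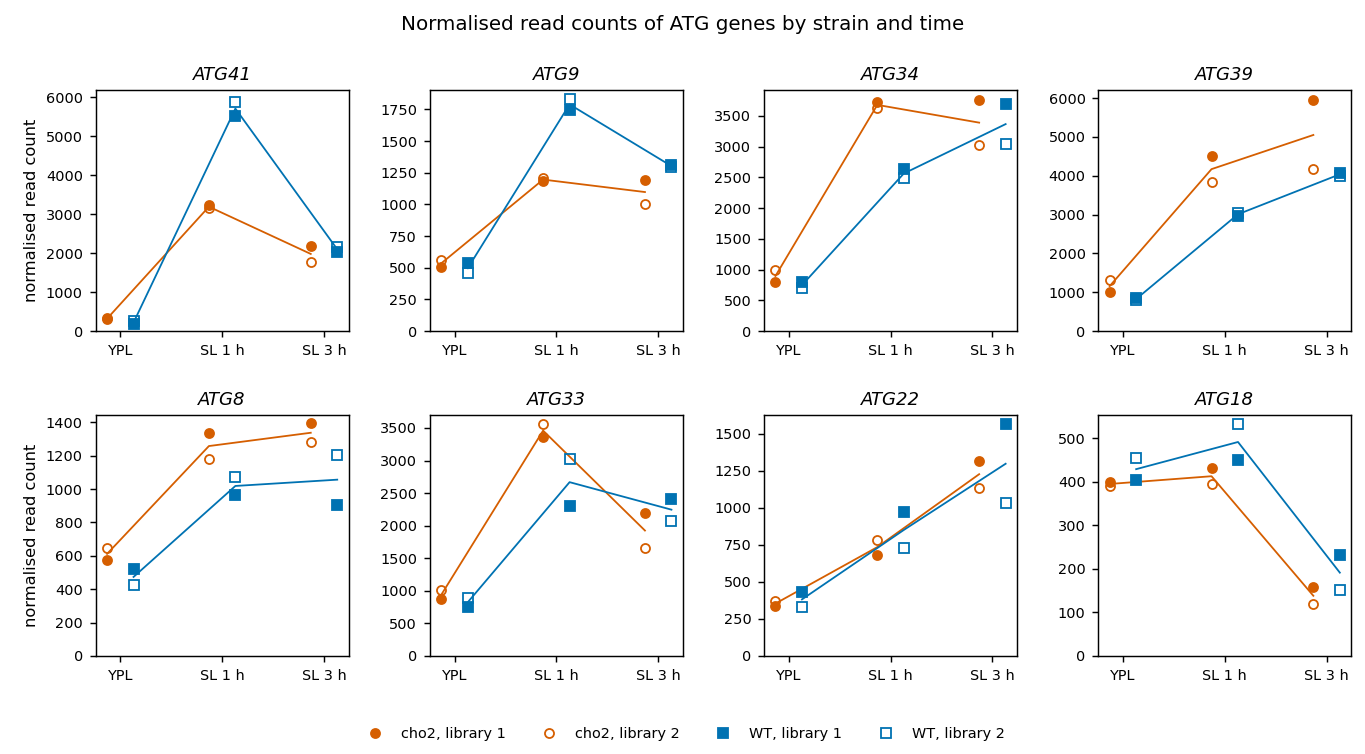
Normalised read counts (vertical axes, from 0, 1 scale per gene) in YPL and 1 h and 3 h after the switch to SL; orange circles are cho2 and blue squares WT, filled for library 1 and open for library 2, and lines join the means. ATG41 and ATG9 are lower in cho2 than in WT at 1 h, ATG22 is highest at 3 h, and ATG18 is lowest at 3 h.

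Not all of these calls at 1 h were equally firm. In cho2 21 of the 26 rises remained whichever of the 12 libraries was left out. ATG4 lost its call without the first cho2 YPL library (adjusted p = 0.0529). ATG27 and ATG29 lost theirs without that library or either cho2 library at 1 h (up to 0.206 and 0.288), and ATG13 without any of the 4 cho2 libraries in YPL and at 1 h (up to 0.174). In WT 24 of the 28 rises remained. VPS30 lost its call without the second WT YPL library (0.0821), ATG17 without that or the second WT 1 h library (0.191 and 0.0646), and ATG13 without the first WT YPL or the second WT 1 h library (0.0532 and 0.159). ATG3 in cho2 and ATG21 in WT lost theirs without any 1 of the 8 libraries in YPL or at 1 h of either strain (up to 0.286 and 0.194).

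At 3 h the picture of ATG genes above their YPL level was kept for most. In cho2 cells 21 rose, against 19.8% of all genes, and 3 fell (ATG18, ATG20 and ATG2), against 37.0%. The median ATG gene was 0.81 higher than in YPL, and the median of all genes -0.18. In WT cells 23 rose, against 22.9% of all genes, and ATG18 alone fell, against 30.8%. The median ATG gene was 0.88 higher, and the median of all genes -0.08. The 21 genes that rose in cho2 were all among the 23 of WT, 91.3% of these. The remaining ones were ATG12, at 0.49 ± 0.21 in cho2 (adjusted p = 0.0521) and 0.62 ± 0.21 in WT, and ATG32, at 0.41 ± 0.19 in cho2 (adjusted p = 0.0673) and 0.75 ± 0.19 in WT.

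All 6 receptors had risen in WT at 3 h and 5 of 6 in cho2. In the core machinery 9 of 18 genes rose and 2 fell in cho2, and 10 rose and 1 fell in WT. Of the 9 accessory and vacuolar genes 7 rose in each strain, and in cho2 ATG20 fell by 0.53 ± 0.17. With all libraries, the medians in cho2 were 0.78 for receptors, 0.51 for core genes and 1.01 for accessory and vacuolar genes. In WT they were 0.97, 0.67 and 1.205. Without the low cho2 library at 3 h, 25 ATG genes rose and 2 fell in cho2, with a median of 1.02 against 0.01 for all genes. Those without the first one were 17 and 4. Without the low library ATG41 was up by 2.78, ATG39 by 2.37, ATG34 by 2.07 and ATG22 by 1.90 in cho2. The core genes ATG1, ATG31, ATG14 and ATG8 were up by 1.60, 1.37, 1.36 and 1.19, and ATG27 and ATG40 by 1.09 and 1.02. ATG19 was up by 0.66 in place of 0.41. ATG18 stood at -1.32 and ATG20 at -0.35, in place of -0.53, and both still passed. ATG12 (0.86), ATG32 (0.67), ATG13 (0.50) and ATG3 (0.40) passed as well. Under TMM scaling 25 ATG genes rose and 3 fell in cho2, where 1903 of the 6546 genes tested rose and 2325 fell. The share of risers among all genes that passed in cho2 was 45.0%, against 34.9% under the deposited scaling. Several calls in cho2 hung on a library: ATG16 lost its call without the first 3 h library (adjusted p = 0.0766), ATG4 and ATG29 without the first YPL or the first 3 h library (up to 0.162 and 0.0841), ATG20 without either YPL library (up to 0.0656), ATG2 without any YPL library of either strain, either cho2 library at 1 h or the low library (up to 0.251), and ATG19 without any library but the low one (up to 0.331). In WT the rise of ATG29 was lost without the second YPL library (0.106), and that of ATG12 without either YPL library or the second 3 h library (up to 0.120).

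Between 1 h and 3 h the cho2 cells had 8 lower and 1 higher ATG transcripts, where 23.8% of all genes fell and 7.99% rose. The falls of ATG18, by 1.58 ± 0.21, ATG33, by 0.86 ± 0.18, and ATG41, by 0.70 ± 0.18, remained whichever library was left out. ATG20, ATG19, VPS30, ATG23 and ATG32 fell by 0.54 to 0.60, and ATG22 rose by 0.74 ± 0.21. Each of these 6 calls was lost without the first cho2 library at 1 h (adjusted p = 0.0944 to 0.214). ATG22 was also lost without the first cho2 library of 3 h (0.0645), VPS30, ATG32 and ATG23 without the second of 1 h (0.0528, 0.0907 and 0.126), and ATG23 without either cho2 YPL library (0.0504 and 0.0503). VPS30, ATG19, ATG23 and ATG32 did not pass without the low library (adjusted p = 0.0660, 0.0680, 0.116 and 0.198). The count of 9 was 3 without the first cho2 library at 1 h, 6 without the second, and 10 (6 higher and 4 lower) without the low library at 3 h. The direction between these times turned with the scaling and the low library, for the ATG genes and all genes alike. The median ATG gene was -0.13 under the deposited scaling, 0.06 under TMM and 0.01 without the low library. The median of all genes was -0.16, 0.03 and 0.03. TMM called 7 ATG genes higher and 7 lower, where 1303 of the 6546 genes tested were higher and 1295 lower. Among all genes that passed, 50.1% were higher under TMM, against 25.2% under the deposited scaling.

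In WT cells 8 ATG transcripts were lower and 2 were higher at 3 h than at 1 h, where 25.5% of all genes fell and 11.1% rose. ATG41 fell by 1.44 ± 0.18, ATG18 by 1.38 ± 0.21 and ATG20 by 0.81 ± 0.17, and these 3 calls remained whichever library was left out. ATG29, ATG15, ATG32, ATG19 and ATG9 also fell, by 0.46 to 0.66, and ATG22 and ATG27 rose, by 0.59 ± 0.21 and 0.53 ± 0.18. Each of these 7 calls was lost without the second WT library at 1 h (adjusted p = 0.0986 to 0.315) and without at least 1 of the 2 WT libraries at 3 h. ATG29, ATG32, ATG19 and ATG9 were also lost without the first WT library at 1 h, ATG19 and ATG9 without either cho2 library at 1 h, and ATG9 without either cho2 library in YPL. TMM scaling called 7 ATG genes higher and 5 lower, where 1368 of the 6546 genes tested were higher and 1297 lower. Among all genes that passed, 51.3% were higher under TMM, against 30.3% under the deposited scaling. The number of calls, 10 in all, was 3 without the second WT library at 1 h, 5 without either WT library at 3 h, and 18 without either cho2 library at 3 h, which bear on this contrast through the shared estimate of spread alone. The strains shared 5 of the 8 falls of each: ATG18, ATG41, ATG20, ATG19 and ATG32.

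**Figure D3:**
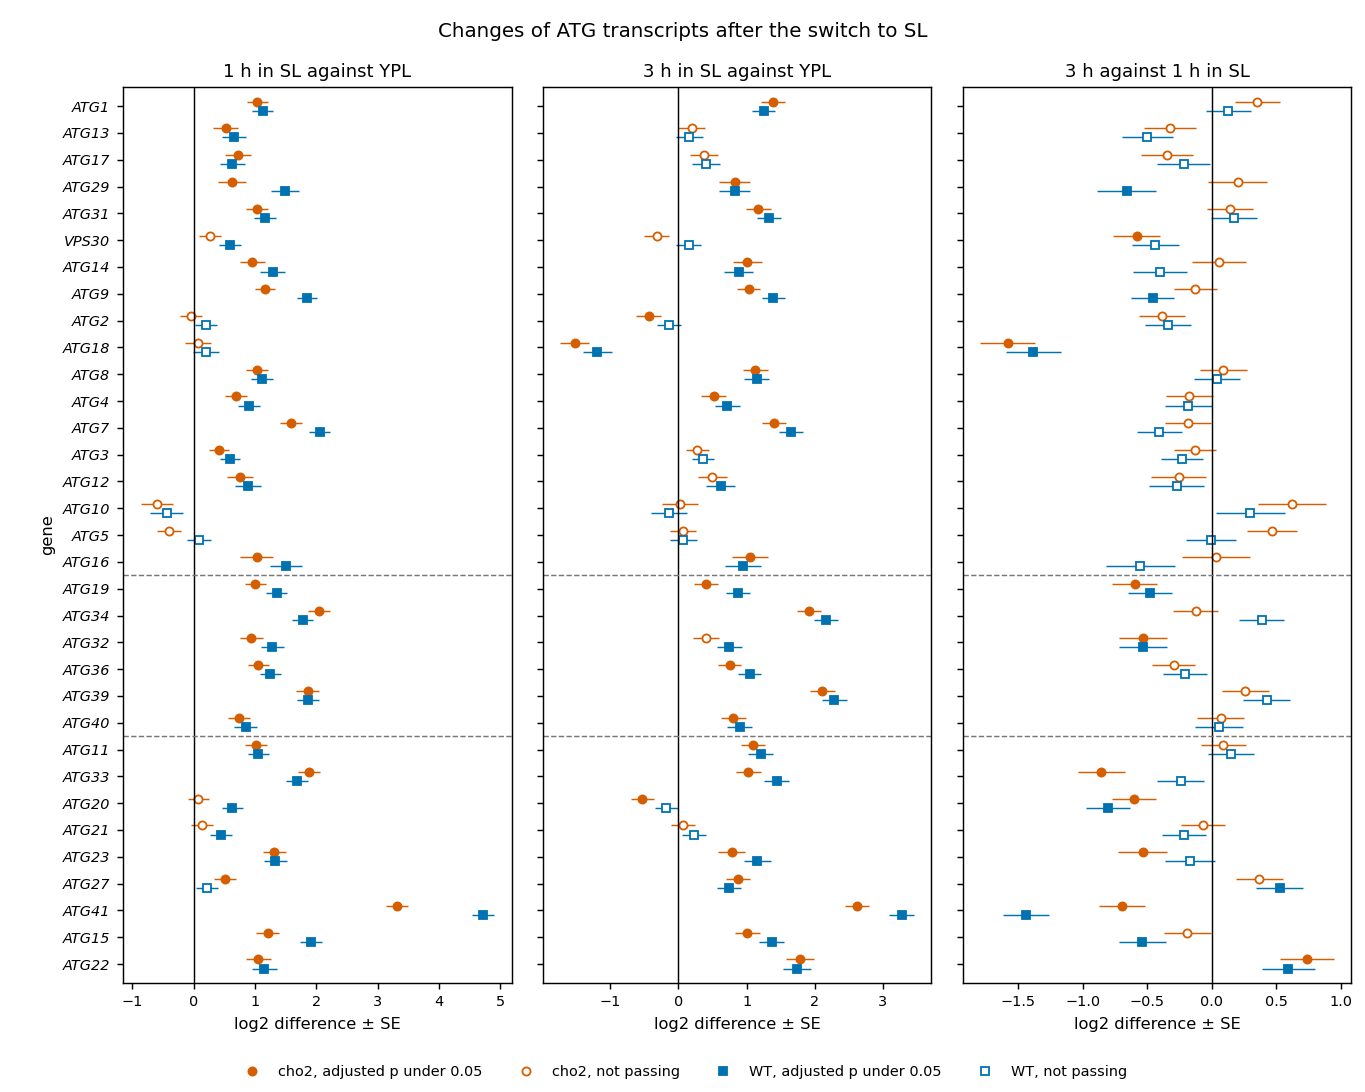
Log2 difference ± SE (horizontal axes, 1 scale per panel) of each ATG gene at 1 h against YPL, at 3 h against YPL and at 3 h against 1 h; orange circles are cho2, blue squares WT, filled where the adjusted p was under 0.05, and dashed lines part core genes, receptors and the other genes. The bulk lies right of 0 in the first 2 panels, ATG41 is farthest right there, and ATG18 is farthest left at 3 h.

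By time course, 16 ATG genes in cho2 and 15 in WT passed as higher at both times with no passing change between 1 h and 3 h. ATG22 alone passed as rising at each step in both strains. The genes with a passing rise at 1 h and none at 3 h were ATG13, ATG17 and ATG3 in both strains, joined by ATG12 and ATG32 in cho2 and by VPS30, ATG20 and ATG21 in WT. With all libraries and the deposited scaling, ATG5 and ATG10 passed in no time contrast of either strain, nor did ATG21 in cho2 or ATG2 in WT.

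**Figure D4:**
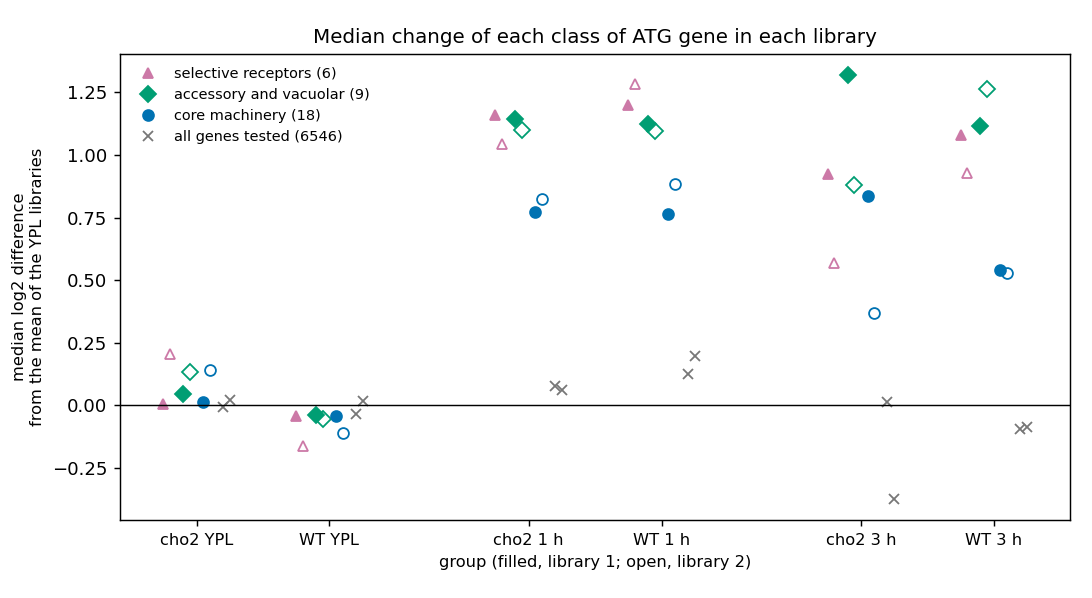
Median log2 difference from the mean of the 4 YPL libraries (vertical axis) over the genes of each class, for each library of the 6 groups; filled symbols are library 1 and open symbols library 2. The medians of receptors at 1 h lie at 1.04 to 1.16 in cho2 and 1.20 to 1.28 in WT, those of core genes at 0.77 to 0.82 in cho2 and 0.77 to 0.89 in WT, and the medians of all genes tested lie between -0.09 and 0.20 except for -0.37 in library 2 of cho2 at 3 h.

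The question of what the loss of CHO2 does to these transcripts was asked at each time. In YPL no ATG gene differed between cho2 and WT by limma, where 0.412% of all genes did, and edgeR and DESeq2 called none. An unadjusted limma p under 0.05 was found for 3 of the 33 ATG genes, and for 456 of the 6546 genes tested. The 3 were ATG41, at 307 and 330.3 in cho2 against 179.9 and 259 in WT (0.56 ± 0.18, adjusted p = 0.317), ATG39, at 998 and 1320.3 against 851 and 801 (0.47 ± 0.18, adjusted p = 0.538), and ATG8, at 574 and 649 against 520.4 and 426 (0.37 ± 0.18, adjusted p = 0.711). In each, both cho2 values lay above both WT values, which held for 20 of the 33 ATG genes. The same share over all genes was not counted. The median difference of the ATG genes was 0.19, with 26 of 33 above 0, and that of all genes 0.01, with 52.6% above 0.

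At 1 h in SL, under the deposited scaling, 2 ATG transcripts were lower in cho2 and none was higher, where 5.59% of all genes were lower and 3.64% higher. ATG41 had 3232 and 3150.4 in cho2 cells, against 5529 and 5886 in WT cells, a difference of -0.84 ± 0.18 (adjusted p = 0.00374). ATG9, whose product binds Atg41, had 1188 and 1205 in cho2, against 1749 and 1831 in WT, a difference of -0.58 ± 0.17 (adjusted p = 0.0285). The strains did not overlap in either gene, but this was common: both cho2 values lay below both WT values in 16 of the 33 ATG genes and above in 7. The same share over all genes was not counted. The median difference of the ATG genes was -0.13, with 11 of 33 above 0, and that of all genes -0.07, with 40.6% above 0. The call of ATG41 was lost without the second cho2 library at 1 h (adjusted p = 0.0540), and that of ATG9 without any of the 4 libraries at 1 h or the 2 cho2 libraries in YPL (up to 0.244). The count of 2 was 1 without either WT library or the first cho2 library at 1 h or without either cho2 library in YPL, 0 without the second cho2 library at 1 h, and 4 without either cho2 library at 3 h. Under TMM scaling 3 ATG genes passed as higher in cho2 (ATG34, ATG39 and ATG33) and 2 as lower. Over all genes TMM called 53.1% of those passing as higher in cho2, against 39.4% under the deposited scaling.

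On the other side, ATG34 had 3726 and 3631 in cho2, against 2635 and 2491 in WT (0.52 ± 0.17, adjusted p = 0.0594, or 0.0251 in DESeq2), and ATG39 had 4498 and 3845, against 2977 and 3042 (0.47 ± 0.18, adjusted p = 0.124). Neither passed in limma. The libraries of the strains did not overlap in either, and both belong to the 7 of 33 ATG genes with both cho2 values above both WT values. Both passed under TMM scaling, and both also without either cho2 library at 3 h (adjusted p for ATG34 0.0250 without the first and 0.0247 without the second, for ATG39 0.0423 and 0.0420). In all, 5 ATG genes that did not pass had an unadjusted p under 0.05: ATG34, ATG39 and ATG33 with higher and ATG15 and ATG29 with lower values in cho2. With the 2 that passed these made 7 of the 33, where 1435 of the 6546 genes tested had such a p.

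At 3 h in SL no ATG gene differed between the strains by limma, where 3.44% of all genes did, nor by edgeR or DESeq2. An unadjusted limma p under 0.05 was found for 4 of the 33, and for 1105 of the 6546 genes tested. ATG14 had 551 and 341 in cho2, against 299.9 and 325 in WT (0.47 ± 0.21, adjusted p = 0.242), and VPS30, ATG18 and ATG36 were at -0.41 ± 0.18, -0.45 ± 0.21 and -0.35 ± 0.17. Without the low cho2 library these 3 were at -0.22, -0.25 and -0.21 and did not pass (adjusted p = 0.389, 0.537 and 0.386), and ATG14 passed as higher in cho2 (0.82). By contrast, when the first cho2 library of that time was left out, VPS30, ATG36 and ATG2 passed as lower. ATG41 no longer stood apart, at 2194 and 1765 in cho2, against 2030.5 and 2168 in WT (-0.09 ± 0.18, or 0.06 without the low library). The median difference of the ATG genes was 0.01 and that of all genes -0.08, or 0.17 and 0.10 without the low library. Over all genes TMM called 34.3% of those passing as higher in cho2, against 17.8%.

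**Figure D5:**
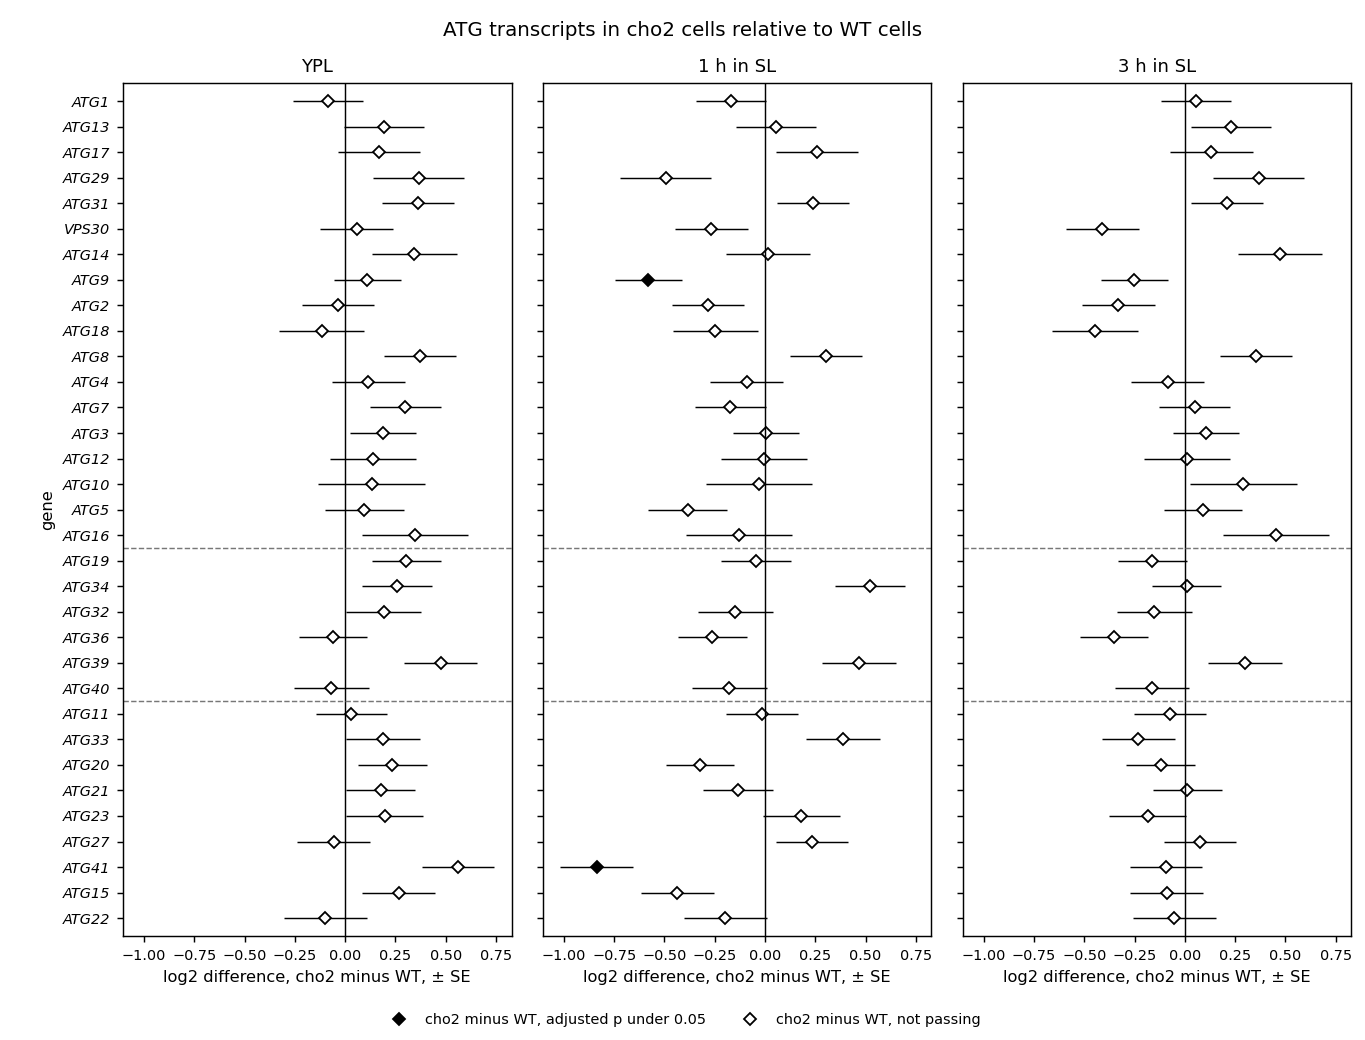
Log2 difference, cho2 minus WT, ± SE of each ATG gene (horizontal axes, 1 scale) in YPL, at 1 h and at 3 h in SL; filled diamonds have an adjusted p under 0.05, and dashed lines part core genes, receptors and the other genes. ATG41 and ATG9 at 1 h are the 2 filled points, and ATG41 lies right of 0 in YPL, farthest left at 1 h and near 0 at 3 h.

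The change of ATG41 from YPL to 1 h differed between the strains itself. The interaction was -1.40 ± 0.25 (adjusted p = 0.00138), the only ATG gene to pass, where 3.61% of all genes did, and it passed whichever library was left out, with adjusted p up to 0.0200. ATG9 had an interaction of -0.69 ± 0.24 (adjusted p = 0.125, or 0.0476 in DESeq2) and ATG15 of -0.70 ± 0.26 (adjusted p = 0.163), neither of which passed in limma. Without either cho2 library at 3 h, ATG9 passed as well (0.0269 and 0.0270), which makes 2. The change at 1 h was larger in cho2 than in WT for 4 of the 33 genes, against 38.3% of all genes. The median interaction was -0.18, against -0.09 for all genes. Under TMM scaling these were 9 genes against 50.3% of all genes, and medians of -0.09 and 0.00. At 3 h no interaction passed in limma, where 0.703% of all genes did, nor in edgeR or DESeq2. ATG41, at -0.65 ± 0.25 (adjusted p = 0.400), was the 1 ATG gene with an unadjusted limma p under 0.05, where 566 of the 6546 genes tested had such a p. Without the low library ATG41 was at -0.50. The median interaction at 3 h was -0.16 for the ATG genes and -0.11 for all genes, and without the low library it was 0.04 and 0.09, so its direction turned with that library.

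Other genes of autophagy and the vacuole formed a list of 25. At 1 h 12 rose and 1 fell in cho2, where 25.2% of all genes rose and 24.6% fell, with a median of 0.24 against 0.05 for all genes. In WT 12 rose and none fell at 1 h, where 33.7% of all genes rose and 23.8% fell, with a median of 0.39 against 0.18. AMS1, the alpha-mannosidase that Atg34 and Atg19 carry, rose by 1.71 ± 0.17 in cho2 and 1.77 ± 0.17 in WT. ATG38, whose product is a further subunit of the lipid kinase complex, rose by 1.46 ± 0.20 and 1.12 ± 0.20. PRB1, the vacuolar protease B, rose by 0.82 ± 0.18 and 1.00 ± 0.18, and the guanine nucleotide exchange subunit gene MON1 by 0.60 ± 0.18 and 0.81 ± 0.18. At 3 h 7 rose and 5 fell in cho2, where 19.8% of all genes rose and 37.0% fell, with a median of 0.03 against -0.18. In WT 9 rose and 3 fell, where 22.9% of all genes rose and 30.8% fell, with a median of 0.24 against -0.08. CUE5, a receptor for ubiquitinated cargo, fell by 1.19 ± 0.18 in cho2 (the low library included, as in these counts) and 0.71 ± 0.18 in WT. None differed between the strains in limma or edgeR at any time. DESeq2 called APE4, the gene of an aminopeptidase, as lower in cho2 at 1 h (adjusted p = 0.0459), a gene named here after its values were seen. An unadjusted limma p under 0.05 was found for 0, 2 and 2 of the 25 in YPL, at 1 h and at 3 h. Of the 6546 genes tested, 456, 1435 and 1105 had such a p.

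Among 17 regulators of autophagy transcription and signalling, 5 rose and 3 fell at 1 h in cho2, shares near the 25.2% and 24.6% of all genes. In WT 8 rose and 3 fell, against 33.7% and 23.8% of all genes. The medians were 0.28 in cho2 and 0.42 in WT, against 0.05 and 0.18 for all genes. RPH1, a demethylase-family protein that represses ATG genes in rich medium, rose by 1.38 ± 0.19 in cho2 and 1.62 ± 0.19 in WT. GAT1, an activator of nitrogen-responsive genes, rose by 0.95 ± 0.19 and 1.44 ± 0.19 at 1 h and fell again by 1.27 ± 0.19 and 1.38 ± 0.19 between 1 h and 3 h. The stress activator gene MSN4 rose by 0.99 ± 0.18 and 1.25 ± 0.18. GIS1, a relative of RPH1, fell by 1.62 ± 0.18 in cho2 and 1.19 ± 0.18 in WT at 1 h. None of the 17 differed between the strains in limma, while edgeR and DESeq2 called GAT1 as lower in cho2 at 1 h (adjusted p = 0.0402 and 0.0321). An unadjusted limma p under 0.05 was found for 0, 3 and 1 of the 17 in YPL, at 1 h and at 3 h. Of the 6546 genes tested, 456, 1435 and 1105 had such a p.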

How the data were processed

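RNA-seq values of 12 yeast libraries, 2 per group, were read from the authors' table. Bowtie, DESeq and the build sacCer2 are named, without versions, per the submitters' processing notes; the kit was a stranded TruSeq kit started from 4 µg of total RNA, per the labels' protocols, and whether counting used the strand is not given in the sources used here. The deposited values are a normalised signal: whole read counts divided by 1 factor per library. Dividing each column by its smallest step gave whole reads for 100% of values (within 0.01 reads), which set the depths and served the edgeR 4.0.16 and DESeq2 1.42.0 alternatives. In cho2 against WT, edgeR called 21 genes higher and 6 lower in YPL, 236 and 417 at 1 h, and 41 and 178 at 3 h. Only an R64 annotation was at hand, so no coordinate or sequence is given; 6006 of 6685 gene IDs and all 33 ATG IDs matched it.

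Differences were fitted with limma 3.58.1 (trend) in R 4.3.3 on log2(value + 1), which understates changes of low genes, over the 6546 genes with values of at least 10 in 2 or more libraries, with 1 mean per group (6 residual degrees of freedom), 11 contrasts and Benjamini-Hochberg adjustment within each. Tables and plots used Python 3.11.15, and the fit was tested on simulated data. No label says that libraries of a group came from separate cultures, so p-values measure the spread between libraries, which may be technical. Any of the 33 genes could be named in any contrast, and of the other lists at most the 6 passing genes with the largest differences in a contrast. The ATG genes, the classes and the other gene lists were chosen with earlier results of these data known. Alternatives were another pseudocount, filter, scaling, replicate block, set of groups in the fit, test, and leaving out each library.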

Additional observations from a re-analysis of the deposited data

Results flagged for a closer look

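The change of ATG41 from YPL to 1 h in SL differed between the strains, by the interaction term of the limma fit, at -1.40 ± 0.25 log2 (adjusted p = 0.00138). The transcript rose 9.99-fold in cho2 cells and 26.3-fold in WT cells. Its YPL values were 307 and 330.3 in cho2 and 179.9 and 259 in WT, and its 1 h values were 3232 and 3150.4 in cho2 and 5529 and 5886 in WT. The values of the strains thus changed order between the media, although the strain difference in YPL did not pass. The interaction also passed in edgeR and DESeq2, and without each library in turn it lay between -1.66 and -1.14.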

How the results depend on the processing

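The 124 passing differences of ATG genes kept their direction under all alternatives. All 124 still passed with a pseudocount of 5, no filter, a filter at 50, edgeR, DESeq2 or the replicate block, as did 120 under TMM scaling, 120 under quantile normalization, 115 with only the groups of the contrast in the fit, and 119 without the second library of each strain at 3 h, an alternative chosen after seeing the data. The number of ATG genes passing between the strains at 1 h, 2 in the report, was 5 under TMM, 7 under quantile normalization, 5 with only the groups compared and 4 without the second 3 h libraries, and 0 to 4 when each library was left out. At 3 h, with none in the report, it was 1 under TMM, quantile normalization and without the second 3 h libraries, and 0 to 3 when each library was left out. The interaction at 1 h, 1 in the report, gave 2 under TMM and DESeq2, 3 under quantile normalization, with only the groups compared and without the second 3 h libraries, and 1 to 2 when each library was left out. From 1 h to 3 h the 9 calls in cho2 became 14 under TMM or quantile normalization, 5 with only the groups compared and 3 to 12 when each library was left out, and the 10 in WT became 3 to 18. The calls over all genes moved as well. Between the strains at 1 h, 238 of the 6546 genes tested were higher and 366 lower in the report. These were 533 and 470 under TMM, and 527 and 517 under quantile normalization. At 3 h 40 were higher and 185 lower in the report, 121 and 232 under TMM, and 131 and 190 under quantile normalization. The causes were not tested. Replicate numbers did not pair the libraries in all groups: same-numbered deviations correlated at -0.196 to 0.542 over 15 pairs of groups, over 0.1 in 6. The highest were 0.542 for WT in YPL with WT at 1 h and 0.419 for cho2 with WT at 3 h. With the replicate block the counts in the order YPL, 1 h and 3 h between strains were 0, 3 and 0, and 1 for the interaction at 1 h. The library of 3166868 reads still gave each ATG gene at least 28 reads.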
